A study of Mus musculus with 22 samples.

Results

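The genes described here are 276 mouse genes whose symbol is Zfp followed by a number, the usual form for genes of C2H2 zinc finger proteins in the mouse. They were chosen from 337 such symbols in a table of 22330 genes, by a mean level of at least 1 FPKM (fragments per kilobase of transcript, scaled to the size of the library) over 9 input libraries, so their expression in those inputs is the rule and not a finding. Of the others, 58 lay below that mean and Zfp36, Zfp42 and Zfp352 were left out by name. Just inside the threshold were Zfp784 at 1.02, Zfp703 at 1.02 and Zfp708 at 1.04 FPKM, and just outside it Zfp946 at 0.998, Zfp174 at 0.994 and Zfp120 at 0.987 FPKM. No protein sequence was used, so the fingers themselves were not checked, and a few members carry the symbol for other reasons: Zfp185, for example, encodes a LIM-domain protein.

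All libraries came from mouse embryonic stem cells grown in serum with LIF, the MEK inhibitor PD0325901 and the GSK3 inhibitor CHIR99021. Poly(A) RNA was sequenced from 2 libraries each of NF45 KO and NF45 WT cells. RIP-seq, in which RNA pulled down by an antibody against NF90/NF110 is sequenced as the immunoprecipitate (IP) beside the total RNA of the same lysate (input), was done after ribosomal RNA depletion in NF90+NF110 KO, NF110 KO and NF90/NF110 WT cells (n = 3 experiments each, below called WT). The file headers call the NF45 WT libraries Rev, and what Rev stands for, which lesion each KO carries and how many clones were used are not stated in the labels. Replicates are called biological without more detail, so p-values measure the spread between these libraries, which may be technical. NF45, encoded by Ilf2, forms complexes with NF90 and NF110 that bind double-stranded RNA.

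C2H2 zinc finger proteins bind DNA, and some bind RNA, through tandem fingers. Many mouse members also carry a KRAB domain, which recruits TRIM28 (KAP1) and through it the methyltransferase SETDB1, and such proteins silence endogenous retroviruses and protect imprints in embryonic stem cells. The family has grown by local duplication, so that its genes stand in clusters of closely similar copies on a few chromosomes.

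The gene targeted in NF45 KO was looked at first. Ilf2 stood at 3.93 and 3.79 FPKM in NF45 KO and at 264 and 308 FPKM in NF45 WT libraries (log2 fold change -5.88, limma adjusted p = 0.000581). In the RIP-seq libraries the genotypes, and the directions drawn from them, rest on the labels. All 10 embryonic stem cell markers were at 1 FPKM or more in every library. The 2-cell-like markers, of which 5 were in the table, summed to 8.63 and 9.70 FPKM in NF45 KO and to 0.230 and 0.599 in NF45 WT. In inputs they summed to 8.61, 2.91 and 9.28 in NF90+NF110 KO, to 0.430, 0.528 and 2.24 in NF110 KO and to 0.347, 0.554 and 0.702 in WT, so NF90+NF110 KO input 2 stood apart from its group. Fibroblast markers (10 genes) summed to at most 8.84 FPKM in any library. Of these, 2 were at 1 FPKM or more in every RIP-seq and NF45 KO library, and 0 in the NF45 WT libraries. Of 6 primitive endoderm markers 2 or 3 were at 1 FPKM or more in every library, with sums of 3.67 to 12.1 FPKM. The depth in reads counted over genes was 9.5 to 11.9 M for inputs, 14.1 to 19 M for IPs and 49.1 to 68.8 M for NF45 libraries, of which members took 0.9235% to 1.095%.

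The members were mostly low in these cells. Their median over the inputs was 5.08 FPKM, against 12.6 FPKM for the 12176 genes of the table that pass the same threshold, and 137 of them lay between 1 and 5 FPKM, 114 between 5 and 20 and 25 at 20 or more (9.06%, against 36.9% of all 12176 genes). The highest were Zfp57, a KRAB protein that keeps methylation at imprinted loci (mean 246 FPKM), Zfp207, a spindle and splicing factor (117), Zfp710 (67.0), the RNA-binding Zfp106 (64.8), Zfp296, a pluripotency-linked factor (60.6), and Zfp428 (57.1). In the NF45 libraries, 263 members reached 1 FPKM in at least 2 libraries and were tested, and the other 13 were not. All 276 were tested in inputs and in IPs.

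Every member was placed on GRCm38, 274 by symbol and 2 by synonym. Chromosome 7 held 77 members (27.9%, against 8.23% of all genes at 1 FPKM or more), chromosome 17 held 30, chromosome 8 held 23, chromosome 13 held 21 and chromosome 6 held 17. With members counted as neighbours when less than 1 Mb apart, 15 runs of at least 5 members held 128 of them, 59 stood in runs of 2 to 4 and 89 stood alone. The largest runs held 14 members each, in 2.59 Mb on chromosome 17 and in 0.4 Mb on chromosome 7. The one on chromosome 7, from 29768552 to 30169775, held Zfp84, Zfp30, Zfp790, Zfp940, Zfp420, Zfp27, Zfp383, Zfp74, Zfp568, Zfp82, Zfp566, Zfp260, Zfp382 and Zfp146. Levels in that run went from 1.97 FPKM for Zfp420 to 48.0 FPKM for Zfp568, which represses a placental transcript of Igf2. Reads of neighbouring copies can be alike, and the labels do not say how such reads were assigned, so values of members in runs are uncertain to that extent.

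In NF45 KO cells 58 of the 263 tested members passed the test against NF45 WT, 24 of them higher and 34 lower. That is 22.1% of members, against 27.6% of all 11481 genes tested (11.7% higher and 16% lower), and the median log2 fold change was -0.03 for members and -0.03 for all genes. Of the 34 lower members, 7 stood on other chromosomes than 6 and 8. On chromosome 6, 16 of 17 were lower (median -0.69), where 61% of the 525 other genes were lower and their median was -0.48. On chromosome 8, 11 of 20 were lower (median -0.43), where 67% of the 610 other genes were lower and their median was -0.50. On all other chromosomes 24 members were higher and 7 were lower, out of 226. Of the other genes on these chromosomes, between 5.82% (chromosome 13) and 13.5% (X chromosome) were lower. On chromosome 7, 140 of the 849 other genes were higher and 80 lower, and on chromosome 13, 17 of 395 were higher and 23 lower. On chromosome 17, 72 of 557 were higher and 66 lower. On chromosome 5, 93 of 724 were higher and 80 lower, and on chromosome 9, 90 of 640 and 69. The share of other genes over all these chromosomes together is not given here, so the 24 higher members are not read as an excess. With each library centred per chromosome, 27 members were higher and 15 lower, and the share of all genes in that setting is not given here.

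**Figure D1:**
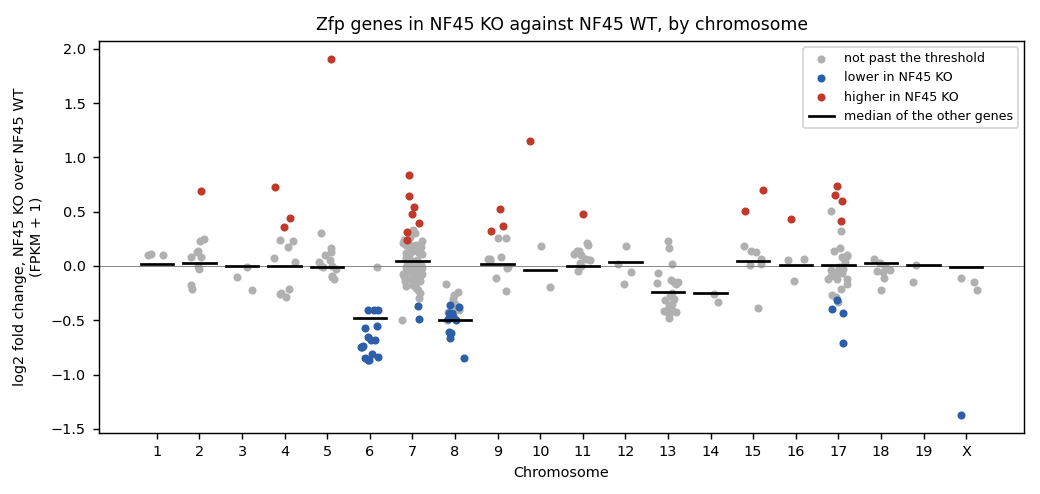
Each point is 1 Zfp gene, with its log2 fold change in NF45 KO over NF45 WT (FPKM + 1, 2 libraries each) on the y axis and its chromosome on the x axis. Members past the threshold are coloured, and black bars give the median of the other genes of that chromosome, -0.48 on chromosome 6 and -0.50 on chromosome 8.

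The 2 NF45 WT libraries also differed between themselves on chromosomes 13 and 14. The 21 members of chromosome 13 had a median deviation from their own means of -0.16 and -0.12 (log2) in NF45 KO libraries 1 and 2, and of -0.12 and 0.40 in NF45 WT libraries 1 and 2. No member of chromosome 13 or 14 passed the test. Zfp131 of chromosome 13 shows the pattern, with 19.6 and 19.7 FPKM in NF45 KO and 21.4 and 33.0 FPKM in NF45 WT libraries.

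Zfp951 on chromosome 5 changed most, with 11.3 and 8.82 FPKM in NF45 KO and 2.37 and 1.53 FPKM in NF45 WT (log2 fold change 1.91 ± 0.19 SE, limma adjusted p = 0.00783). Zfp365, which encodes a centrosomal protein, stood at 14.0 and 14.2 FPKM in NF45 KO, against 6.10 and 5.50 in NF45 WT (1.15 ± 0.08, limma adjusted p = 0.00693). For both genes the NF45 KO libraries lay well above the NF45 WT libraries. Zfp428 was at 20.8 and 24.1 FPKM in NF45 KO and 11.0 and 13.2 FPKM in NF45 WT (log2 fold change 0.84). Zfp229 was at 35.0 and 34.1 FPKM in NF45 KO and 21.5 and 19.2 FPKM in NF45 WT (0.74). The groups did not overlap in any of these 4. Zfp600 was at 5.41 and 4.80 FPKM in NF45 KO and 2.75 and 2.61 FPKM in NF45 WT (0.73). Zfp41 was at 16.8 and 16.3 FPKM in NF45 KO and 10.0 and 9.53 FPKM in NF45 WT (0.70). The 8 largest increases were completed by Zfp334 (0.69), at 2.00 and 1.79 FPKM in NF45 KO and 0.760 and 0.822 FPKM in NF45 WT, and by Zfp97 (0.65), at 4.72 and 4.30 FPKM in NF45 KO and 2.66 and 2.37 FPKM in NF45 WT. Smaller increases passed for Zfp445, which guards imprints together with Zfp57 (0.33), for the ESC chromatin factor Zfp462 (0.35) and for Zfp296 (0.24). Zfp57 itself was at 212 and 195 FPKM in NF45 KO and at 201 and 222 in NF45 WT (-0.05, limma adjusted p = 0.627). The 2-cell-like markers given above were higher in the same NF45 KO libraries, and their part in these increases was not tested.

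Off chromosomes 6 and 8 the largest decrease was that of Zfp185 on the X chromosome, at 5.39 and 4.27 FPKM in NF45 KO and 13.0 and 15.0 FPKM in NF45 WT (-1.37 ± 0.13, limma adjusted p = 0.00757). The other 6 were Zfp948, Zfp943, Zfp760 and Zfp318 on chromosome 17 and Zfp61 and Zfp607 on chromosome 7, with log2 fold changes from -0.71 to -0.32. A run of 9 members on chromosome 6 from 47815536 to 48621548 (Zfp786, Zfp398, Zfp282, Zfp212, Zfp956, Zfp777, Zfp746, Zfp467 and Zfp775) was lower throughout, from -0.41 for Zfp212 to -0.87 for Zfp467. In it, Zfp746, known as the Parkin substrate PARIS, stood at 5.30 and 5.26 FPKM in NF45 KO and at 10.4 and 10.2 in NF45 WT (-0.85 ± 0.07, limma adjusted p = 0.00693). After centring per chromosome Zfp746 was at -0.35, Zfp800 at -0.37 and Zfp821 of chromosome 8 at -0.36, all still past the threshold, while Zfp467, Zfp775, Zfp9 and Zfp282, at -0.37, -0.34, -0.31 and -0.25, were not. The call count rested on both NF45 KO libraries: it was 0 without either of them, 114 without NF45 WT library 1 and 90 without library 2. Bulk RNA cannot tell fewer expressing cells from less RNA per cell, here or in what follows.

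In input RNA, members lay lower in NF90+NF110 KO and NF110 KO cells than in WT by a small amount, for which limma called no single member and other tools called some. The comparisons of NF90+NF110 KO and of NF110 KO with WT share the 3 WT inputs. Per library, the median member was at 5.12, 4.77 and 5.04 FPKM in NF90+NF110 KO inputs, at 4.90, 4.52 and 4.38 FPKM in NF110 KO inputs, and at 5.44, 5.58 and 5.62 FPKM in WT inputs. Every KO input thus had a lower median than every WT input, and the NF90+NF110 KO and NF110 KO ranges overlapped.

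In NF110 KO against WT inputs limma called 0 of 276 members, where it called 0.00804% of all 12444 genes. An unadjusted p under 0.05 was reached by 79 members (28.6%, against 16.4% of all genes). The count tests on recovered reads called 0 with edgeR (0% of all genes) and 19 with DESeq2, all lower (2.59% of the genes to which DESeq2 gave an adjusted p). The authors' deposited table called 34 members lower and 0 higher for this comparison, and 4.83% of all genes with an adjusted p. The median log2 fold change was -0.13, against 0.01 for all genes. Among members of 1 to 5 FPKM it was -0.21, with 119 of 137 below 0 (86.9%). Of the 2981 other genes of that level 53.4% were below 0, with a median of -0.02. At 5 to 20 FPKM the median was -0.06 for members and -0.02 for other genes, and at 20 FPKM or more it was 0.07 and 0.05. All 3 NF110 KO inputs lay below all 3 WT inputs for 101 members (36.6%, against 12.3% of all genes), and above them for 9 members (3.26%, against 10.3%).

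The genes with the smallest p by limma were Zfp534, Zfp97, Zfp709 and Zfp445. None passed limma's threshold, while in the authors' deposited table all 4 were lower, with adjusted p of 0.000896, 0.016, 0.0121 and 0.000397 in that order. Zfp534 on chromosome 4 was at 8.84, 7.98 and 7.60 FPKM in NF110 KO inputs and at 12.3, 17.7 and 18.7 FPKM in WT inputs (-0.90 ± 0.14, limma adjusted p = 0.149). Zfp97 was at 2.56, 2.29 and 2.34 FPKM in NF110 KO inputs and at 4.28, 4.81 and 4.83 FPKM in WT inputs (-0.73). Zfp709 was at 1.04, 0.960 and 0.780 FPKM in NF110 KO inputs and at 2.00, 1.79 and 1.99 FPKM in WT inputs (-0.61). Zfp445 was at 12.3, 10.9 and 11.3 FPKM in NF110 KO and at 16.3, 17.2 and 17.7 FPKM in WT inputs (-0.53 ± 0.10, limma adjusted p = 0.149). In each of these 4 genes the groups did not overlap. The largest fold change, -0.997, was that of Zfp936 on chromosome 7, at 4.22, 2.77 and 3.47 FPKM in NF110 KO and 6.68, 7.36 and 9.90 FPKM in WT inputs. The 9 members with every NF110 KO input above every WT input were Zfp335, Zfp46, Zfp513, Zfp516, Zfp523, Zfp526, Zfp532, Zfp598 and Zfp64.

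**Figure D2:**
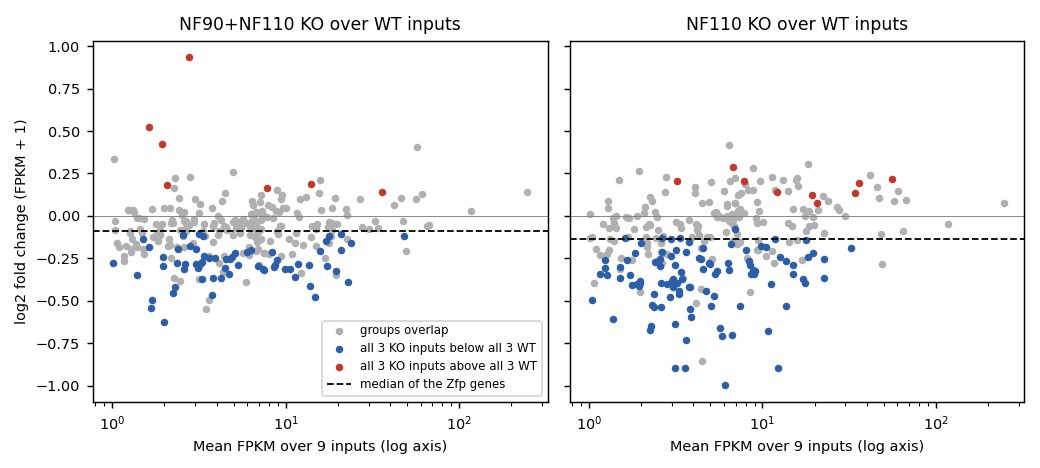
Each point is 1 of the 276 Zfp genes, with its mean FPKM over the 9 inputs on a log x axis and its log2 fold change in NF90+NF110 KO (left) or NF110 KO (right) over WT inputs on the y axis. Blue points are the 64 (left) and 101 (right) members whose 3 KO inputs all lay below the 3 WT inputs, and the dashed lines are the medians, -0.09 and -0.13.

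Between NF90+NF110 KO and WT inputs limma called 0 members as well (background 0.209%), and 50 had an unadjusted p under 0.05 (18.1%, against 14.8%). The 2 members called by edgeR and the 7 called by DESeq2 compare with 0.21% and 2.13% of genes called by these tools. The authors' deposited table called 15 members lower and 2 higher, and 4.94% of all genes with an adjusted p. The median was -0.09, against -0.01 for all genes, and all 3 NF90+NF110 KO inputs lay below the WT inputs for 64 members (23.2%, against 12.7%) and above them for 7 (2.54%, against 8.81%). Zfp365 stood highest, at 4.45, 4.21 and 4.25 FPKM in NF90+NF110 KO, 1.95, 2.05 and 2.81 FPKM in NF110 KO and 1.30, 2.10 and 1.98 FPKM in WT inputs (NF90+NF110 KO over WT 0.94 ± 0.15, limma adjusted p = 0.0536). Its 3 NF90+NF110 KO inputs lay close together and above all other inputs. Zfp318, which sets IgD transcript splicing in B cells, was at 11.3, 12.2 and 11.4 FPKM in NF90+NF110 KO, at 14.7, 16.8 and 16.2 FPKM in NF110 KO and at 15.9, 16.4 and 17.5 FPKM in WT inputs (NF90+NF110 KO over WT -0.48 ± 0.08, limma adjusted p = 0.0541). Zfp445 was at 14.5, 11.3 and 12.1 FPKM in NF90+NF110 KO inputs, below the WT values given above (-0.41), and Zfp507 was at 9.01, 8.65 and 8.63 FPKM in NF90+NF110 KO inputs and 11.0, 11.1 and 11.2 FPKM in WT inputs (-0.31). Limma called none of these 4, while the authors' deposited DESeq2 table did. Its adjusted p was 0.000132 for Zfp365, 1.14e-08 for Zfp318, 0.00826 for Zfp445 and 0.0161 for Zfp507.

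Set against each other, NF90+NF110 KO and NF110 KO inputs gave 0 called members with limma (background 0.0482%), 0 with edgeR (0.0449%) and 2 with DESeq2 (0.556%), and 40 reached an unadjusted p under 0.05 (14.5%, against 10.4%). The authors' deposited table called Zfp318, Zfp319 and Zfp365, 1 of them higher and 2 lower, and 0.991% of all genes with an adjusted p. The median was 0.04, against -0.01 for all genes. All 3 NF90+NF110 KO inputs lay above the NF110 KO inputs for 37 members (13.4%, against 6.29%) and below them for 23 (8.33%, against 8.38%). The smallest p were those of Zfp365 (0.71), Zfp534 (0.56), Zfp97 (0.50) and Zfp318 (-0.42). Zfp534, at 13.7, 12.1 and 11.6 FPKM in NF90+NF110 KO inputs, and Zfp97, at 4.73, 3.12 and 3.65 FPKM, thus lay above all NF110 KO inputs.

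Some members varied more between replicates than between genotypes. The 590 genes tested on chromosome 6 moved together, with median deviations of 0.22 to 0.255 (log2) in 4 inputs and of -0.22 to -0.15 in the other 5, across genotypes. The 17 members there had median deviations of -0.32, 0.21 and -0.18 (log2) in NF90+NF110 KO inputs 1 to 3, of 0.22, 0.21 and -0.21 in NF110 KO inputs and of 0.21, -0.03 and -0.16 in WT inputs. Zfp746 followed this, at 7.83, 15.0 and 8.16 FPKM in NF90+NF110 KO, 14.4, 14.5 and 9.83 FPKM in NF110 KO and 14.3, 9.21 and 9.24 FPKM in WT inputs. Zfp951 spread still wider, at 8.74, 1.57 and 6.35 FPKM in NF90+NF110 KO, 1.82, 1.20 and 4.75 FPKM in NF110 KO and 2.49, 5.99 and 7.67 FPKM in WT inputs. NF90+NF110 KO input 2 was the lowest of its group for Zfp951. It was also the lowest for Zfp809, a KRAB protein that silences endogenous retroviruses (25.0, 10.7 and 21.7 FPKM in NF90+NF110 KO inputs 1 to 3). In the authors' deposited table the log2 fold change of Zfp809 over WT inputs was 0.00967 ± 0.208 SE in NF90+NF110 KO. In NF110 KO it was -0.286 ± 0.208 SE.

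In WT cells far more members were lower than higher in the IP, and most of the lower ones were members of low level. IP against input gave 48 members higher and 115 lower of 276, so 17.4% were higher and 41.7% lower, against 28.9% and 23.6% of all 12693 genes tested. The median log2 IP over input was -0.14, against 0.02 for all genes. In NF110 KO cells 39 members were higher and 51 lower (background 21.1% and 17%), with a median of -0.03. In NF90+NF110 KO cells, which by their label lack what the antibody binds and serve as the background of the pull-down, 57 were higher and 49 lower (background 23.4% and 21.1%), with a median of 0.00. The NF110 KO count of 90 was 57 without NF110 KO experiment 1 and 57 without experiment 2, and the NF90+NF110 KO count of 106 was 67 without NF90+NF110 KO experiment 1.

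Experiment by experiment the WT medians stood apart. They were -0.01, -0.05 and 0.06 in the 3 NF90+NF110 KO experiments, -0.05, -0.03 and 0.03 in the NF110 KO experiments, and -0.13, -0.15 and -0.18 in the WT experiments, whereas the median over all tested genes was between 0.00 and 0.03 in each. In FPKM the median member of the IPs was at 5.24, 4.62 and 5.24 in NF90+NF110 KO, at 4.48, 4.26 and 4.70 in NF110 KO and at 4.40, 4.83 and 4.48 in WT. The IP medians of the 3 genotypes thus overlapped, and the WT inputs, given above, were the highest. The ribosomal RNA precursor Rn45s also moved with genotype, at 1048 to 1218 FPKM in NF90+NF110 KO, 1810 to 2308 in NF110 KO and 2270 to 2790 in WT IPs, and at 914 to 1065, 1451 to 1745 and 1383 to 1651 FPKM in the inputs of the same genotypes. Its part in these values was not tested.

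**Figure D3:**
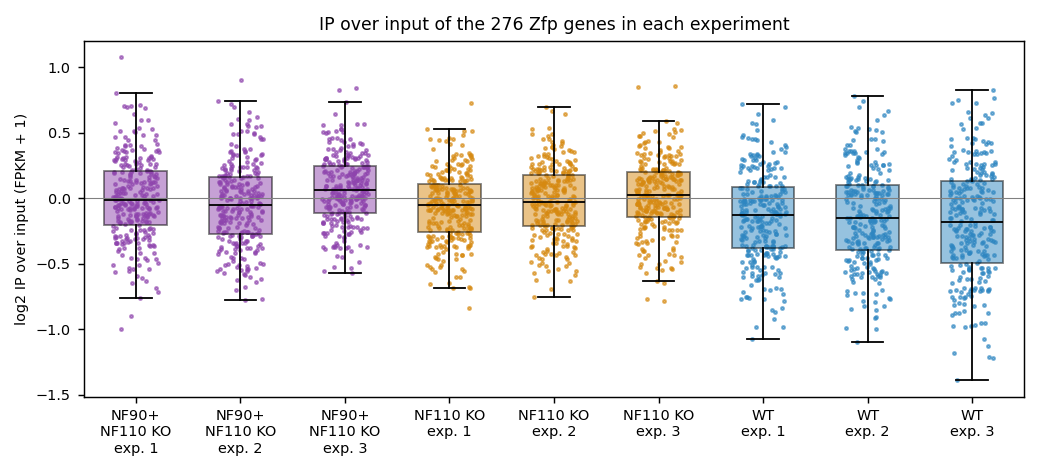
Each column is 1 RIP-seq experiment and each point 1 of the 276 Zfp genes, with its log2 IP over input (FPKM + 1) on the y axis. Boxes give the quartiles and the median, whiskers reach to 1.5 times the box height, and the 3 WT medians (-0.13, -0.15 and -0.18) lie below the 6 others (-0.05 to 0.06).

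Members and other genes were then set side by side at the same level. In WT IP, members of 1 to 5 FPKM were 3 higher and 75 lower (2.19% and 54.7%, median -0.30), against 13% and 21.9% of the 2985 other genes of that level (median -0.05). Members of 5 to 20 FPKM were 33 higher and 38 lower (28.9% and 33.3%, median -0.03), against 27.8% and 26.6% of other genes (0.01). Members of 20 FPKM or more were 12 higher and 2 lower (48% and 8%, median 0.15), against 43.7% and 22.2% of other genes (0.09). In WT the medians of the other genes thus also went up with level, over a smaller range. The wider gap between members and other genes in WT was at 1 to 5 FPKM. Members' medians stood in the same order in NF90+NF110 KO (-0.06, 0.03 and 0.21) and for NF110 KO (-0.04, 0.01 and 0.10), and at 1 to 5 FPKM other genes were at -0.02 for NF90+NF110 KO and -0.04 for NF110 KO. At 20 FPKM or more other genes were at -0.01 for NF90+NF110 KO and 0.06 for NF110 KO. In NF90+NF110 KO the wider gap was at that level, with 60% of members and 30.1% of other genes higher. No difference between members and other genes was tested. Members in runs of at least 5 were 18 higher and 56 lower in WT, and those in runs of 2 to 4 were 7 higher and 33 lower, while those standing alone were 23 higher and 26 lower, with medians of -0.19, -0.29 and 0.00. These 3 classes also differ in level, with median inputs of 4.11, 5.37 and 6.91 FPKM. The level is the mean of the same inputs that IP is divided by, so the 2 measures are not independent, and this split was chosen after the values were seen.

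**Figure D4:**
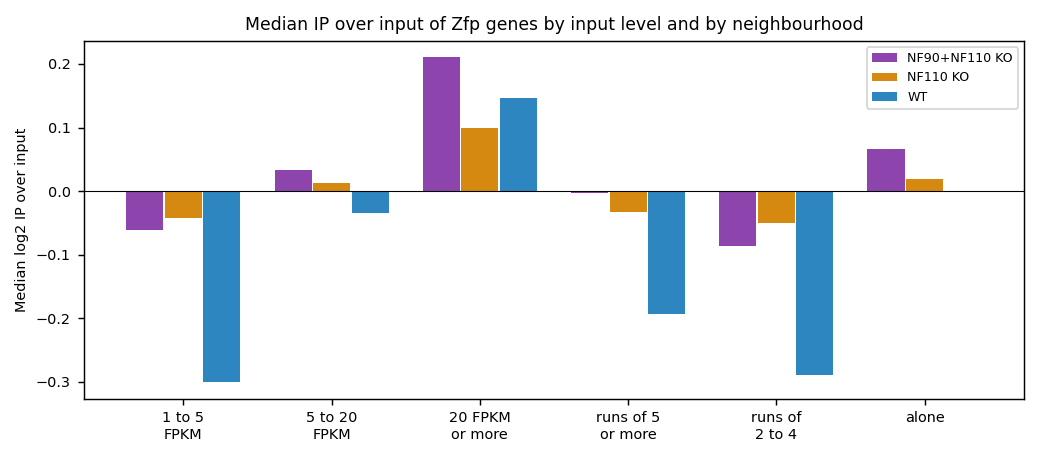
Bars give the median log2 IP over input (FPKM + 1) of the Zfp genes, split by mean input level and by whether they stand in a run of neighbours, for each genotype of 3 experiments. In WT the bar of the 137 members of 1 to 5 FPKM reaches -0.30, against -0.04 in NF110 KO and -0.06 in NF90+NF110 KO.

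Of the 48 members higher in WT IP, 42 (87.5%) were also higher in NF90+NF110 KO IP, where they made up 73.7% of the 57, and 23 (47.9%) were higher in NF110 KO IP. Of the 115 lower in WT, 43 (37.4%) were also lower in NF90+NF110 KO, 87.8% of the 49 there, and 36 (31.3%) in NF110 KO. The 3 comparisons share no library but come from one fit. Lower in WT and in neither KO were 62 of the 115 (53.9%). Over all 3663 genes higher in WT IP, 65.6% were also higher in the NF90+NF110 KO IP and 52.7% in the NF110 KO IP, and of the 2996 lower in WT IP 59.3% and 49% were also lower there and 29.8% in neither. A call in one genotype and not in another is no test, and the tests of the differences between genotypes are given further on.

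On the log2(FPKM + 1) scale the lowest IP over input in WT was that of Zfp930 on chromosome 8, at 4.10, 3.97 and 2.71 FPKM in IP and 7.67, 8.38 and 8.69 FPKM in input (-1.02 ± 0.15, limma adjusted p = 0.000164). Zfp329 was at 1.68, 1.28 and 1.69 FPKM in WT IP and 4.30, 3.87 and 4.22 FPKM in WT input (-1.01 ± 0.11, limma adjusted p = 8.04e-06), and at -0.56 for NF90+NF110 KO and -0.58 for NF110 KO. With a pseudocount of 0.1 in place of 1, Zfp329 was the lower of the pair, at -1.37 against -1.2 for Zfp930. Zfp871 was at 4.81, 4.43 and 4.58 FPKM in WT IP and 10.5, 9.88 and 9.80 FPKM in WT input (-0.98 ± 0.08, limma adjusted p = 7.61e-07). IP and input did not overlap in any of these 3, and the same held for Zfp933 (-0.86), Zfp397 (-0.86), Zfp488 (-0.85), Zfp942 (-0.83) and Zfp950 (-0.82). Zfp942 was at -0.06 for NF90+NF110 KO and -0.09 for NF110 KO. The retrovirus silencer Zfp809 (-0.56), the imprint guard Zfp445 (-0.49) and Zfp932, which represses endogenous retroviral sequences (-0.53), were lower in WT IP too, while Zfp57 was at 246, 229 and 209.6 FPKM in WT IP and 264, 222 and 214 FPKM in WT input (-0.03, limma adjusted p = 0.687).

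The highest were Zfp628, at 12.2, 11.9 and 14.3 FPKM in WT IP and 7.04, 6.54 and 8.22 FPKM in WT input (0.74 ± 0.07, limma adjusted p = 3.2e-06), and Zfp622, a factor of large ribosomal subunit maturation, at 28.2, 35.0 and 37.8 FPKM in WT IP and 17.7, 20.5 and 22.4 FPKM in WT input (0.71 ± 0.06, limma adjusted p = 7.74e-07). Zfp598, the ubiquitin ligase that marks collided ribosomes, followed at 79.0, 86.0 and 86.9 FPKM in WT IP and 51.7, 52.5 and 51.2 FPKM in WT input (0.68). Each was also higher in NF90+NF110 KO IP, Zfp628 by 0.91, Zfp622 by 0.56 and Zfp598 by 0.61. Zfp319 (0.65), Zfp710 (0.54), Zfp341 (0.53), Zfp668 (0.51) and Zfp512 (0.49) completed the 8. Of other members known to act on RNA, Zfp207 was at 0.29 and the double-stranded RNA-binding Zfp346 at 0.19, both higher, Zfp326, which couples transcription to splicing, was lower at -0.29, and Zfp106 (0.09) and Zfp638, a silencer of retroviral DNA (0.08), did not pass. Other DNA-binding members of known role were higher (Zfp217, a corepressor-bound factor, 0.38; Zfp462, 0.46; Zfp384, 0.29) or not past the threshold (Zfp281, 0.06; Zfp143, 0.15; Zfp410, an activator of Chd4, 0.07). Of further members with a known role, Zfp609 (0.27), Zfp652 (0.17) and Zfp516, a factor of brown fat (0.41), were higher in WT IP, and the ubiquitin ligase Zfp91 (-0.33), Zfp148 (-0.34), the SUMO ligase Zfp451 (-0.24) and Zfp654 (-0.61) were lower.

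Promoters were read for the members that stand at the ends of this order, to show how their base composition differs. RefSeq promoters (GRCm38.p6, 250 bases before to 50 after a start) were available for 229 members, with 286 promoters in all. The median promoter held 16 CG pairs and 55.3% G or C, against 21 and 61% in the 12390 promoters of all genes that pass the same level. The 120 promoters of members lower in WT IP had a median of 53.5%, the 50 of members higher in WT IP 62.3%, and the 116 of members not called 56%. This split was not made for other genes, so whether it is particular to members was not tested. The classes also differ in level: 75 of the 115 lower but 3 of the 48 higher members lay at 1 to 5 FPKM. The promoters of a pair of members from each end of the order follow, 5′ to 3′ on the strand of the gene, with each CG in capitals: Zfp329 (chr7:12818811-12819110, minus strand) and Zfp933 (chr4:147848369-147848668, minus strand) among the lowest, Zfp628 (chr7:4914967-4915266, plus strand) and Zfp622 (chr15:25984116-25984415, plus strand) the highest.
Zfp329: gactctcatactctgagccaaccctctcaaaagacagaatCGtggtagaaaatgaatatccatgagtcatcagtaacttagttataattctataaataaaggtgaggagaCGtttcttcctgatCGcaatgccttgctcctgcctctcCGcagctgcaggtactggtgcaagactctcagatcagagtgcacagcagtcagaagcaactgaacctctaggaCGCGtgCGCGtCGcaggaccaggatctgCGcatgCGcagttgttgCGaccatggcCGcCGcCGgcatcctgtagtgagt
Zfp933: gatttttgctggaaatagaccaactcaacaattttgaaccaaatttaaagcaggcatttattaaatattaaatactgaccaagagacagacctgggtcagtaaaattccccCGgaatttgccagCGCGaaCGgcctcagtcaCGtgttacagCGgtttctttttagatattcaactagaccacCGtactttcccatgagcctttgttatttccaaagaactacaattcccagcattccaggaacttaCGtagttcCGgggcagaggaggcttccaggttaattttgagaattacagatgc
Zfp628: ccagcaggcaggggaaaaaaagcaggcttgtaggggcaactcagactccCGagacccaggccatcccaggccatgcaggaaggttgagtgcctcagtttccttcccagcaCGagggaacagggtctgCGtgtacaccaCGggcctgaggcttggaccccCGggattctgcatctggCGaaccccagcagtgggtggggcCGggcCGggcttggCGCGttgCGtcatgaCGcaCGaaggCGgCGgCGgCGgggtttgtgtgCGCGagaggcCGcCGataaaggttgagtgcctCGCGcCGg
Zfp622: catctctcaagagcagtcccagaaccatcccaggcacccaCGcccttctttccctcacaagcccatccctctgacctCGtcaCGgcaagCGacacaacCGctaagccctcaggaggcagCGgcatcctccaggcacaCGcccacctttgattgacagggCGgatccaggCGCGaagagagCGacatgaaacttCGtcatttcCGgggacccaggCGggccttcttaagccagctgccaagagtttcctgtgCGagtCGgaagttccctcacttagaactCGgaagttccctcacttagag
They hold 15, 9, 24 and 17 CG pairs, in that order. The letters of 3 motifs were searched on both strands of the promoters. The ETS letters CCGGAAG occurred in 20.3% of member promoters, against 17.6% at that level and 8.86% of all 32851 promoters in the RefSeq table. The YY1 letters AANATGGCG occurred in 7.69%, against 5.05% and 2.38%, and the letters TATAAA in 8.04%, against 6.85% and 13.6%. The motifs were chosen after values were seen, and a match is a description of letters only.

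IP over input was then compared between genotypes in 1 fit over all 18 libraries. In NF110 KO minus WT, 42 members had a higher and 15 a lower IP over input in NF110 KO (15.2% and 5.43%, against 6.8% and 6.55% of all genes), with a median of 0.08 against -0.03. In NF90+NF110 KO minus WT, 11 were higher and 0 lower (background 1.21% and 4.61%), with a median of 0.16 against -0.01. Lower calls there went with level: 0.302% of other genes at 1 to 5 FPKM, 1.26% at 5 to 20 and 11.6% at 20 or more. Only 25 of the 276 members lay at 20 FPKM or more. By an unadjusted p under 0.05 in either direction 75 members passed (27.2%, against 23.5%), and edgeR called 34 higher and 0 lower (background 3.19% and 5.31%). Set against NF110 KO, 18 were higher and 4 lower in NF90+NF110 KO (background 3.91% and 6%), with a median of 0.05 against 0.00. Here too lower calls of other genes went with level, at 0.637%, 3.01% and 13.5% in the same level classes. The first comparison and the second share the WT experiments. NF90+NF110 KO minus NF110 KO shares its NF110 KO experiments with the first comparison and its NF90+NF110 KO experiments with the second.

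These calls rest on few experiments. For NF110 KO minus WT the count was 0 without NF110 KO experiment 2 or 3 or WT experiment 3, 12 without WT experiment 2 and 57 with all, it was 0 with no filter on low values, and it was 91 with edgeR (68 higher and 23 lower, background 9.69% and 7.79%). The count of NF90+NF110 KO minus WT was 0 without NF90+NF110 KO experiment 1 or 3 or WT experiment 2, 2 without WT experiment 1, 3 without WT experiment 3, 4 without NF110 KO experiment 2 and 23 without NF90+NF110 KO experiment 2. The count of NF90+NF110 KO minus NF110 KO was 0 without NF110 KO experiment 2 or NF90+NF110 KO experiment 1, 4 without NF110 KO experiment 3 and 8 without NF90+NF110 KO experiment 2.

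The 42 members with the higher IP over input in NF110 KO were low in that genotype's inputs: the median input difference (NF110 KO minus WT, log2) was -0.46 and it was below 0 for all 42, while the median IP difference was 0.13, above 0 for 37. Inputs divide the IPs in these ratios, so the input differences and the differences in IP over input are not independent. Zfp936 led, at 5.57, 4.97 and 7.05 FPKM in NF110 KO IP against inputs of 4.22, 2.77 and 3.47, and at 4.27, 4.59 and 3.68 FPKM in WT IP against inputs of 6.68, 7.36 and 9.90 (difference in log2 IP over input 1.40 ± 0.22, limma adjusted p = 0.0169). Its IP over input was above 0 in the 3 NF110 KO experiments and below 0 in the 3 WT experiments. Zfp808 was at 2.95, 2.97 and 3.36 FPKM in NF110 KO IP with inputs of 2.39, 2.05 and 2.35, and at 2.56, 2.87 and 1.99 FPKM in WT IP with inputs of 3.74, 5.94 and 5.76 (1.14 ± 0.22, limma adjusted p = 0.0176). Zfp930 (1.09), Zfp534 (1.06), Zfp81 (0.92), Zfp825 (0.91), Zfp932 (0.90) and Zfp97 (0.86) followed, and of these 8 Zfp936 also passed in NF90+NF110 KO minus WT (0.89, limma adjusted p = 0.0424). Among members of known role, Zfp809 (0.50), Zfp445 (0.34), Zfp277, a partner of Polycomb (0.49), Zfp292 (0.49) and Zfp644 (0.39) were higher.

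The 15 members with the lower IP over input in NF110 KO were of higher level, with a median of 15.7 FPKM over the inputs, against 4.00 FPKM for the 42. Other genes were also lower more often at high level. At 20 FPKM or more 24% of members and 12.2% of other genes were lower, and 8% and 8.64% higher. At 1 to 5 FPKM 0% of members and 1.21% of other genes were lower, and 16.1% and 2.81% higher. For the 15 members the median input difference was 0.19 and the median IP difference -0.16. Zfp358 was at 6.92, 7.62 and 7.22 FPKM in NF110 KO IP with inputs of 6.43, 7.03 and 7.93, and at 8.76, 7.64 and 10.2 FPKM in WT IP with inputs of 6.77, 5.33 and 6.07 (-0.46 ± 0.12, limma adjusted p = 0.0335). Zfp414 (-0.41), Zfp282 (-0.41), Zfp574 (-0.37), Zfp598 (-0.37), Zfp523 (-0.37), Zfp319 (-0.37) and Zfp526 (-0.36) were the next, with Zfp335 (-0.33), Zfp296 (-0.27) and Zfp219 (-0.25) among the rest. Zfp598 was at 75.6, 74.4 and 75.7 FPKM in NF110 KO IP, below the WT IP values given above, with inputs of 54.0, 63.0 and 64.9 that lay above the WT inputs.

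**Figure D5:**
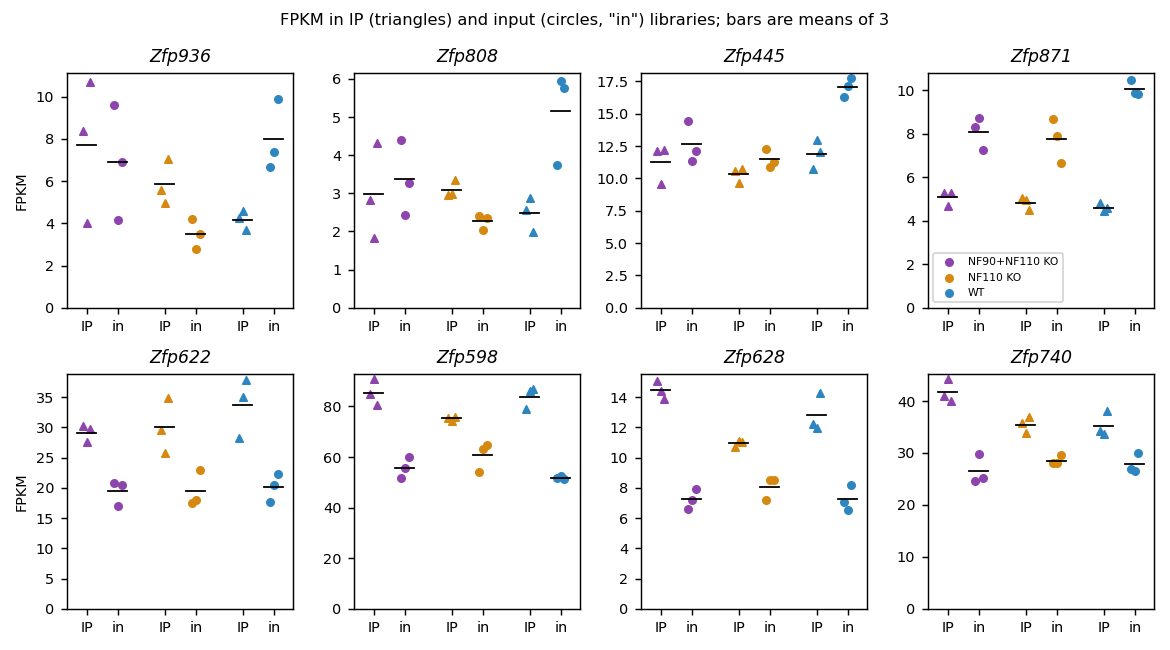
FPKM of 8 Zfp genes in every RIP-seq library, with IPs as triangles and inputs as circles in NF90+NF110 KO, NF110 KO and WT, and bars at the mean of 3. For the first 4 genes every WT IP lies below every WT input, and for the last 4 (Zfp622, Zfp598, Zfp628 and Zfp740) every IP lies above every input of its genotype.

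Among the 11 members with a higher IP over input in NF90+NF110 KO than in WT were Zfp345 (0.93 ± 0.18, limma adjusted p = 0.0179), Zfp936 and Zfp942 (0.77 ± 0.14, limma adjusted p = 0.0144). Zfp345 was at 1.99, 1.64 and 2.05 FPKM in NF90+NF110 KO IP with inputs of 1.68, 1.27 and 1.31, and at 1.46, 1.57 and 0.998 FPKM in WT IP with inputs of 2.14, 2.76 and 3.37. Zfp942 was at 1.85, 1.94 and 1.85 FPKM in NF90+NF110 KO IP with inputs of 2.25, 1.94 and 1.84, and at 1.49, 1.28 and 1.19 FPKM in WT IP with inputs of 3.04, 3.04 and 3.27. In both, the WT inputs were above and the WT IPs below those of NF90+NF110 KO. The others were Zfp964 (0.66), Zfp617 (0.52), Zfp944 (0.51), Zfp866 (0.44), Zfp607 (0.43), Zfp871 (0.40), Zfp445 (0.34) and Zfp740 (0.30), and for the 11 the median input difference was -0.29 and the median IP difference 0.24.

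Between NF90+NF110 KO and NF110 KO the 18 higher members included Zfp768 (0.56), Zfp362 (0.54), Zfp319 (0.52), Zfp865 (0.51), Zfp628 (0.50), Zfp408 (0.50), Zfp358 (0.48) and Zfp827 (0.40). Zfp628 was at 15.1, 14.4 and 13.9 FPKM in NF90+NF110 KO IP and 10.7, 11.1 and 11.0 FPKM in NF110 KO IP, with inputs of 6.59, 7.22 and 7.95 and of 7.19, 8.49 and 8.49 in the same genotypes. Its IPs did not overlap and its inputs did. The 4 lower were Zfp771 (-0.57), Zfp454 (-0.42), Zfp277 (-0.40) and Zfp207 (-0.25). Zfp207 was at 136, 126 and 132 FPKM in NF90+NF110 KO IP and 145, 142 and 162 FPKM in NF110 KO IP, with inputs of 125, 117 and 116 and of 117, 105 and 119 in the same genotypes, so its IPs did not overlap and its inputs did.

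Co-repressor genes that work with KRAB proteins, 31 in all, were counted beside the shares of all genes. In NF45 KO 3 of 30 were higher (Hdac2, 0.34; Mta1, 0.47; Mta3, 0.27) and 1 lower, the chromatin remodeller Smarcad1 on chromosome 6 (-0.58). Of all genes 11.7% were higher and 16% lower in NF45 KO. In both KO input comparisons with WT 0 of 31 were called by limma, with medians of -0.07 for NF90+NF110 KO and -0.02 for NF110 KO. Of all genes limma called 0.209% and 0.00804% in these comparisons. In IP against input 17 were higher and 3 lower in NF90+NF110 KO (median 0.20), 20 higher and 3 lower in NF110 KO (0.23), and 17 higher and 6 lower in WT (0.18). In WT IP 12 of 40 Zbtb genes were higher and 10 lower (median 0.00), 4 of 26 Zscan and Zkscan genes higher and 5 lower (-0.03), and 9 of 19 Klf and Sp genes higher and 4 lower (0.14). In NF45 KO 7 of 23 Zscan and Zkscan genes were higher and 0 lower, 4 of them copies of the 2-cell-stage gene Zscan4 (1.38 to 2.15). There 1 of 37 Zbtb genes was higher and 2 lower, and 0 of 18 Klf and Sp genes were higher and 3 lower, with the pluripotency factor Klf4 at -0.65. No difference between these lists and the members was tested, and the lists were not matched to the members or to all genes by level.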

How the data were processed

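All values come from 2 deposited tables. The FPKM values were made by the authors; the submitters' processing notes name mm10, HTSeq 0.6.1, DESeq2, Cuffnorm, Cufflinks 2.2.1 and TopHat2 2.0.10, with no role or order. The other deposited table holds, per its header, DESeq2 normalised counts (a signal of reads over 1 size factor per library), each comparison's log2 fold change with its error, a Wald score, and p-values by the authors. Per the labels, NF45 libraries used a stranded poly(A) kit and RIP-seq libraries a stranded kit with ribosomal RNA depletion.

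Tests used limma 3.58.1 (trend and robust, R 4.3.3) on log2(FPKM + 1), which understates fold changes of low genes, over all genes at 1 FPKM or more in at least 2 NF45 or 3 RIP-seq libraries, with Benjamini-Hochberg adjusted p under 0.05. The NF45 libraries, the 9 inputs and the 18 RIP-seq libraries were fitted separately, and the last fit had a term per experiment, since the series' design text pairs each IP with an input. Deviations of the 9 IPs correlated best with their own input (0.544 to 0.833). Whole reads were recovered from the normalised counts (100% within 0.1 of a whole number) and tested with edgeR 4.0.16 and DESeq2 1.42.0 as alternatives. The limma fits of the NF45 libraries and of the 9 inputs were tried on simulated data. The fit of the 18 RIP-seq libraries and the edgeR and DESeq2 runs were not. All n are libraries or experiments, and error is the SE of the fit.

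Members and lists were chosen with earlier results of these data known. Named are members of known role, up to 8 called members per direction and comparison by log2 difference (the 4 of smallest p where fewer than 3 were called), the 6 of highest level, those next to the threshold and 1 run. The planned choice, the densest run, was made as the run with most members and, of 2 such, the shorter, although some smaller runs hold more members per Mb. Others, such as Zfp936 and Zfp942 in inputs, were named after their values were seen. A planned split by KRAB box and finger number was not analysed here, and a check of the RIP-seq genotype labels is not reported here.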

Additional observations from a re-analysis of the deposited data

Results flagged for a closer look

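IP over input differed between genotypes by limma's test of the difference itself for the members below (log2 differences, adjusted p under 0.05 over all genes). Each rests on 3 experiments a genotype, and the counts they belong to fell to 0 without single experiments, as given above.

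In NF110 KO minus WT it was higher for Zfp936 (1.40), Zfp808 (1.14), Zfp930 (1.09), Zfp534 (1.06), Zfp81 (0.92), Zfp825 (0.91), Zfp932 (0.90) and Zfp97 (0.86), and lower for Zfp358 (-0.46), Zfp414 (-0.41), Zfp282 (-0.41), Zfp574 (-0.37), Zfp598 (-0.37), Zfp523 (-0.37), Zfp319 (-0.37) and Zfp526 (-0.36).

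In NF90+NF110 KO minus WT it was higher for Zfp345 (0.93), Zfp936 (0.89), Zfp942 (0.77), Zfp964 (0.66), Zfp617 (0.52), Zfp944 (0.51), Zfp866 (0.44) and Zfp607 (0.43).

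In NF90+NF110 KO minus NF110 KO it was higher for Zfp768 (0.56), Zfp362 (0.54), Zfp319 (0.52), Zfp865 (0.51), Zfp628 (0.50), Zfp408 (0.50), Zfp358 (0.48) and Zfp827 (0.40), and lower for Zfp771 (-0.57), Zfp454 (-0.42), Zfp277 (-0.40) and Zfp207 (-0.25).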

How the results depend on the processing

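No named gene changed the sign of its log2 difference under an alternative that gave it an adjusted p. The balance of calls did turn: in NF45 KO it was 24 higher and 34 lower, but 27 and 15 centred per chromosome. The NF90+NF110 KO IP gave 57 and 49, but 52 and 57 with median centring and 55 and 56 with edgeR. In NF110 KO minus WT 73.7% of calls were higher, and 63.2% with DESeq2. Counts of called members in the input comparisons with DESeq2 were 19 (NF110 KO against WT), 7 (NF90+NF110 KO against WT) and 2 (NF90+NF110 KO against NF110 KO), against 0 with limma. Between NF90+NF110 KO and WT inputs, edgeR, centring per chromosome and a replicate block each gave 2. The labels do not say that input numbers pair the genotypes. Some inputs correlated best with their own number in another genotype and others did not, which cannot decide it. The replicate block left the other input and NF45 counts within 1.5 times. Without the block by experiment the IP count was 53 for NF90+NF110 KO and 39 for NF110 KO, and all 3 genotype differences gave 0.

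In NF90+NF110 KO minus WT the count of 11 became 34 with edgeR, 2 with no filter, 7 with a pseudocount of 0.1 and 3 with quantile normalisation. In NF110 KO minus WT the count of 57 became 91 with edgeR and 0 with no filter. In NF90+NF110 KO minus NF110 KO the count of 22 became 38 with edgeR and 4 with no filter.

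The members' median in NF45 KO became 0.00187 centred per chromosome, 0.0266 with median centring and 0.00301 with quantile normalisation. The WT IP median became -0.188 with DESeq2, -0.185 centred per chromosome, -0.2 with edgeR, -0.179 with a pseudocount of 0.1 and -0.0974 with quantile normalisation, and the NF110 KO IP median became 0.0212 with quantile normalisation. The cause of these changes was not tested.

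Leaving out 1 library or experiment at a time gave 0 to 114 called members in NF45 KO, 0 to 1 in NF90+NF110 KO against WT inputs, and 0 in both other input comparisons. It gave 67 to 107 in NF90+NF110 KO IP, 57 to 91 in NF110 KO IP and 129 to 168 in WT IP. The differences ranged over 0 to 23 (NF90+NF110 KO minus WT), 0 to 75 (NF110 KO minus WT) and 0 to 30 (NF90+NF110 KO minus NF110 KO). Medians ranged over -0.033 to -0.0065 in NF45 KO, -0.129 to -0.0871 (NF90+NF110 KO against WT inputs), -0.152 to -0.118 (NF110 KO against WT inputs) and 0.0134 to 0.0582 (NF90+NF110 KO against NF110 KO inputs). They ranged over -0.0306 to 0.0211, -0.0362 to 0.000315 and -0.16 to -0.114 in the IPs of NF90+NF110 KO, NF110 KO and WT, and over 0.135 to 0.179, 0.0587 to 0.121 and 0.0218 to 0.0753 for the differences in the order given. For named members, 717 of these values kept their side of the threshold, 210 lost it and 1 gained it, and under the other alternatives 770 kept it, 105 lost it and 16 gained it.

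At 9.5 to 11.9 M reads per input, low members rest on few reads, and how similar copies in runs share reads limits them further.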
